A study of Homo sapiens with 4 samples.

Results

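The genes described here encode the chaperones, disulphide isomerases, translocation channel, stress sensors and degradation machinery of the endoplasmic reticulum (ER). They were taken from a list of 35 symbols. All 35 were found in the deposited table, 33 by the listed symbol and 2, ERO1L and ERO1LB, under the current names ERO1A and ERO1B. Those averaging 1 FPKM or more across the libraries were kept, which left 34 of the 12260 genes of the table at this level. The lowest genes inside this limit were ERO1B, with a mean of 4.85 FPKM, and ERN1, with 5.23 FPKM. The gene outside it was DERL3, a derlin of secretory tissues, which was listed at 0 in the 3 treated libraries and at 0.0247 FPKM in the control.

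RNA came from TOV21G, a human line of ovarian clear cell carcinoma. The groups were cells given As2O3 (arsenic trioxide) at 1 µM for 48 h, cells given GSK458, a PI3K and mTOR inhibitor, at 0.1 µM for 48 h, cells given both drugs at these doses for 48 h, and cells given no drugs, the control, whose time in culture the labels do not state. Each group was 1 library, so differences carry no replicate error, no test was run, and the values compare these 4 libraries. Levels are FPKM, fragments scaled to transcript length and to library size, so they can be set beside each other between genes. How library size was scaled is not known here.

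Proteins that enter the secretory pathway pass through the SEC61 channel into the ER, where the HSP70 chaperone BiP, lectin chaperones and disulphide isomerases fold them. Proteins that fail to fold are moved back to the cytosol and degraded by the proteasome. When unfolded proteins build up, the sensors IRE1, ATF6 and PERK start the unfolded protein response, in which the transcription factors XBP1 and ATF6 raise the genes of folding and degradation and PERK raises ATF4. PI3K and mTOR drive protein synthesis, and arsenic binds protein thiols.

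Many of these genes carry a known promoter element through which ATF6 and XBP1 act, the ER stress response element (ERSE), with the letters CCAAT and CCACG set 9 unspecified bases apart, or its variant ERSE-II, with the letters ATTGG and CCACG set 1 base apart. Promoter windows of 300 bases around each start, from RefSeq on GRCh38.p14, were searched on both strands and over every start listed for a gene. Only exact matches were counted, so a gene without a match can still hold a variant or more distant copy. Of the 34 genes, 32 had a promoter in the table, and PDIA3 and DERL1 had none. ERSE was found in 8 of the 32 genes (25%) and in 16 of 9232 measured genes matched by symbol (0.173%). ERSE-II was found in 3 of the 32 (9.38%) and in 14 of the 9232 (0.152%). These genes are textbook carriers of the elements, so the shares describe the group. The next stretches are from genes that both carry an element and were lower with GSK458, so they were picked with the values known. PDIA6 also carries one and was lower, but is not shown. PDIA4 and PDIA3 were lower too, but PDIA4 had no match and PDIA3 no promoter. All are from GRCh38.p14, read 5′ to 3′ on the strand of the gene, with ERSE (ERSE-II in HYOU1 and SDF2L1) in capitals, which appear as the reverse complement where the element lies on the other strand.
HSPA5, chr9:125241374-125241483, minus strand: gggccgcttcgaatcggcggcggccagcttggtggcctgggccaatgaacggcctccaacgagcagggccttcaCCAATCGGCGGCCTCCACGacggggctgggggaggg
HSP90B1, chr12:103930210-103930239, plus strand: ccctgaCCAATCGGAAGGAGCCACGcttcg
HSP90B1, chr12:103930315-103930344, plus strand: tgggtgCGTGGTGCGGCGCGATTGGtgggt
HYOU1, chr11:119057265-119057400, minus strand: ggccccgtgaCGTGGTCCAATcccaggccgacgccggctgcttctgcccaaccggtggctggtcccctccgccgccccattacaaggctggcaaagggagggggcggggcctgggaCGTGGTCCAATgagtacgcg
SDF2L1, chr22:21642102-21642141, plus strand: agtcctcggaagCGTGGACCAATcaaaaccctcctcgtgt
CRELD2, chr22:49918549-49918577, plus strand: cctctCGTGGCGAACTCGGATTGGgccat
CALR, chr19:12938374-12938413, plus strand: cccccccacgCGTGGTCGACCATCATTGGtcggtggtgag

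Another 3 stretches are shown because their genes carry the same element but did not have a lower level with GSK458 of the size seen in those above. CANX and XBP1 hold ERSE. HERPUD1 holds ERSE-II and, in capitals upstream of it, the letters TGATGNAA on the other strand, the core of the element bound by ATF4. That core was found in 1 of the 32 genes (3.13%) and in 228 of the 9232 measured genes (2.47%).
CANX, chr5:179698772-179698801, plus strand: tcccggCCAATCTTCACACTCCACGaagaa
XBP1, chr22:28800598-28800639, minus strand: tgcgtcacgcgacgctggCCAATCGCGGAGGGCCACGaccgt
HERPUD1, chr16:56931952-56932047, plus strand: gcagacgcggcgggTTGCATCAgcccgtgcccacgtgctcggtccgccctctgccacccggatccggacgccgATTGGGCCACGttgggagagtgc

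The remaining matches were ERSE in PDIA6 and ERO1B. The letters TGACGTGG, the core of an element bound by XBP1, were found in HYOU1, where they overlap the first ERSE-II, and in DNAJC10, against 115 of the 9232 measured genes (1.25%).

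The libraries were alike in general measures. FPKM summed to 577409 with As2O3, 588892 with GSK458, 566797 with both drugs and 543975 in the control, and 16157 to 16409 symbols were above 0. The absolute depth is unknown, and the steps between low values put depth at 96.3%, 109% and 85.8% of the control's with As2O3, GSK458 and both drugs. Of the markers of clear cell carcinoma or epithelium, PAX8, ANXA4, KRT7, KRT8 and KRT18 each averaged above 1 FPKM, while NAPSA and EPCAM were at most 1.06 and 1.71 FPKM. The 5 fibroblast, 5 immune and 4 endothelial markers summed to at most 4.69, 4.38 and 0.0786 FPKM in any library, and the defining genes PTPRC, CD3E, COL3A1, LUM and CLDN5 were listed at 0 in all 4. CD68, also a lysosomal gene, made up most of the immune sum.

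Together the 34 genes summed to 3901 FPKM with As2O3, 2779 FPKM with GSK458, 2788 FPKM with both drugs and 4739 FPKM in the control. These sums were 0.676%, 0.472%, 0.492% and 0.871% of all FPKM in the same libraries. The sum was lower in every treated library than in the control, and lowest in the pair with GSK458. Without CALR, the most abundant panel gene in the control, the shares were 0.592% with As2O3, 0.426% with GSK458, 0.440% with both drugs and 0.711% in the control. The order held without it. In bulk RNA a lower share of cells with high ER gene levels and less of each message per cell cannot be told apart.

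**Figure D1:**
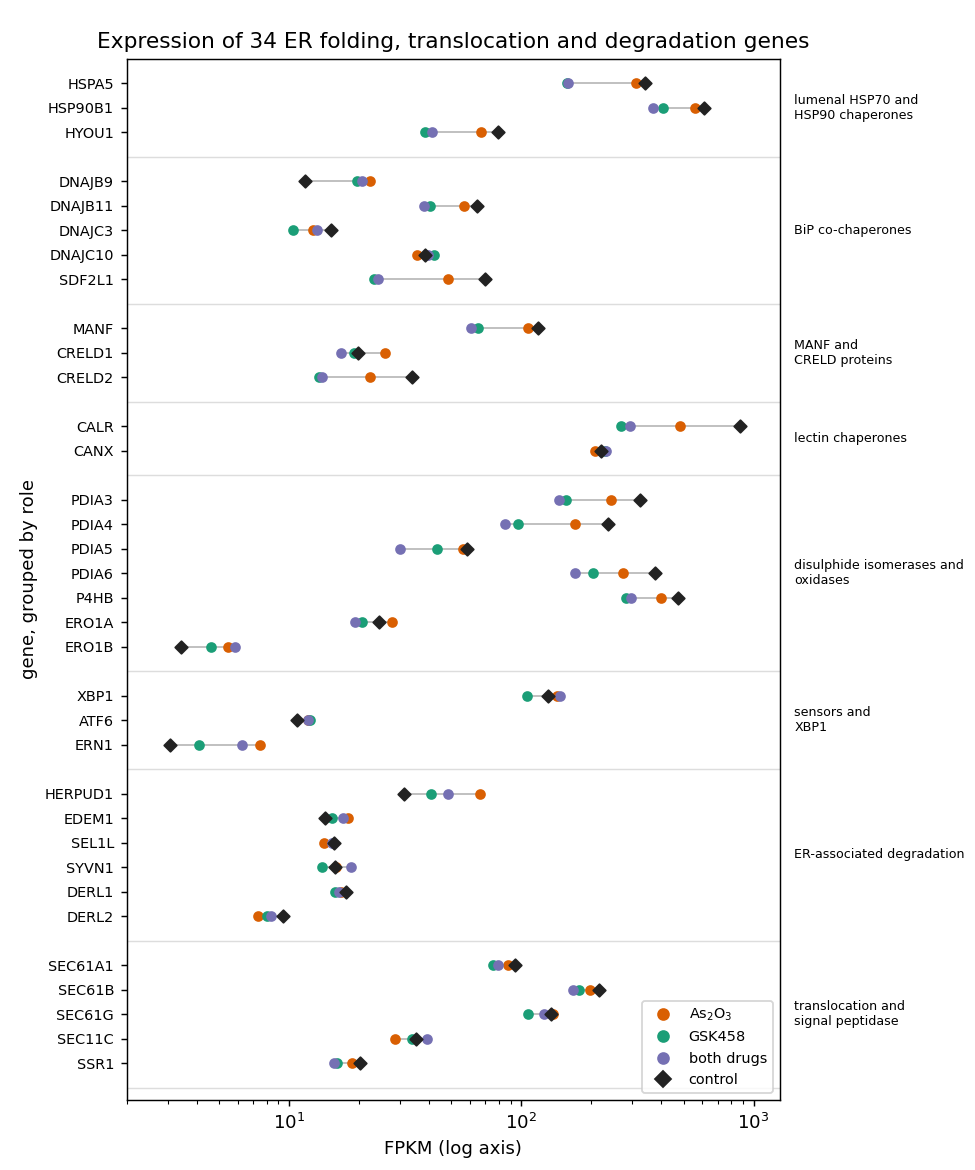
FPKM of the 34 genes on a log axis, 1 point per library (As2O3, GSK458, both drugs, control), grouped by role, with a grey line from the lowest to the highest library. The control (diamond) is highest for HSPA5, CALR and the disulphide isomerases PDIA3, PDIA4, PDIA5, PDIA6 and P4HB, and lowest for DNAJB9, ERO1B, ERN1 and HERPUD1.

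The lumenal HSP70 and HSP90 chaperones were lower in both GSK458 libraries. HSPA5, which encodes BiP, the main HSP70 of the ER, stood at 313 FPKM with As2O3, 158 FPKM with GSK458, 158 FPKM with both drugs and 342 FPKM in the control. The As2O3 and control values lie close together, and the GSK458 and combination values are close to each other, at 0.462 and 0.463 times the control value. HSP90B1, the ER member of the HSP90 family, stood at 557 FPKM with As2O3, 406 FPKM with GSK458, 368 FPKM with both drugs and 612 FPKM in the control. HYOU1, a large HSP70-like protein that exchanges nucleotide on BiP, stood at 66.9 FPKM with As2O3, 38.5 FPKM with GSK458, 41.2 FPKM with both drugs and 79.6 FPKM in the control. In all 3 the As2O3 value lay below the control and both GSK458 libraries lay below As2O3.

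The co-chaperones of BiP split. SDF2L1, an ER protein that works with BiP and J-domain proteins, stood at 48.5 FPKM with As2O3, 23.1 FPKM with GSK458, 24.2 FPKM with both drugs and 69.9 FPKM in the control. SDF2, its relative outside the panel, stood at 22.9 FPKM with As2O3, 30.6 FPKM with GSK458, 27.0 FPKM with both drugs and 27.2 FPKM in the control, without the low values of SDF2L1 in the GSK458 libraries. DNAJB11, a lumenal J-domain protein that loads clients onto BiP, stood at 56.4, 40.6, 38.0 and 64.6 FPKM with As2O3, GSK458, both drugs and in the control.

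DNAJB9, another J-domain partner of BiP that also represses IRE1, went the other way. It stood at 22.4 FPKM with As2O3, 19.6 FPKM with GSK458, 20.5 FPKM with both drugs and 11.7 FPKM in the control, so all 3 treated libraries were above the control, by 1.68 to 1.92 times. Its exons overlap those of THAP5 and PNPLA8 on the opposite strand in GENCODE v29, and the sources used here do not give whether counting used strand. PNPLA8 stood at 10.1, 6.19, 7.18 and 5.90 FPKM in the same libraries, and the part of this overlap in the DNAJB9 values was not tested. DNAJC3, the lumenal co-chaperone p58IPK, ranged from 10.4 FPKM with GSK458 to 15.1 FPKM in the control. DNAJC10, a J-domain reductase that opens disulphides, ranged from 35.5 FPKM with As2O3 to 42.1 FPKM with GSK458, the narrowest range of the 5 for its level.

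Of MANF and the CRELD proteins, CRELD2 and MANF were lower with GSK458 by at least 1.5-fold and CRELD1 was close to the control. CRELD2, a lumenal protein with disulphide isomerase motifs, stood at 22.3 FPKM with As2O3, 13.4 FPKM with GSK458, 13.9 FPKM with both drugs and 33.9 FPKM in the control. CRELD1, its membrane-bound relative, stood at 25.8 FPKM with As2O3, 19.0 FPKM with GSK458, 16.8 FPKM with both drugs and 19.8 FPKM in the control. The related genes therefore had their highest values in different libraries, CRELD2 in the control and CRELD1 with As2O3. MANF, a lumenal protein that binds BiP and can be secreted, stood at 107 FPKM with As2O3, 65.3 FPKM with GSK458, 60.4 FPKM with both drugs and 118 FPKM in the control, close to the pattern of HSPA5. CRELD2 shares exon sequence with ALG12 on the opposite strand, and ALG12 ranged from 16.1 to 18.9 FPKM.

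The lectin chaperones, which hold glycoproteins during folding, contrasted with each other. CALR, the soluble calreticulin, stood at 480.3 FPKM with As2O3, 269 FPKM with GSK458, 294 FPKM with both drugs and 872 FPKM in the control. CANX, the membrane-bound calnexin, stood at 208 FPKM with As2O3, 229 FPKM with GSK458, 231 FPKM with both drugs and 221 FPKM in the control. CALR was thus 0.551, 0.308 and 0.337 times its control value with As2O3, GSK458 and both drugs, where CANX was between 0.939 and 1.05 times. CALR ranked 91st of all symbols in the control and 166th, 268th and 224th with As2O3, GSK458 and both drugs. Among the panel it was the most abundant gene in the control, and HSP90B1 was in each treated library.

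The disulphide isomerases were lower with GSK458 in all 5 genes. PDIA4 stood at 171 FPKM with As2O3, 96.3 FPKM with GSK458, 85.1 FPKM with both drugs and 235 FPKM in the control. PDIA3, also called ERp57, which works with the lectin chaperones, stood at 242 FPKM with As2O3, 155 FPKM with GSK458, 145 FPKM with both drugs and 323 FPKM in the control. PDIA6 stood at 273 FPKM with As2O3, 203 FPKM with GSK458, 169.8 FPKM with both drugs and 375 FPKM in the control. In these 3 genes the As2O3 library lay between the control and the GSK458 libraries, and the combination was lowest.

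P4HB, protein disulphide isomerase itself, stood at 400.0 FPKM with As2O3, 281 FPKM with GSK458, 297 FPKM with both drugs and 473 FPKM in the control. PDIA5 stood at 56.1 FPKM with As2O3, 43.4 FPKM with GSK458, 30.1 FPKM with both drugs and 58.3 FPKM in the control, and its 2 GSK458 libraries differed by -0.51 on the log2 scale, more than those of the other isomerases on that scale. ERO1A and ERO1B, the oxidases that recharge the isomerases, differed from each other. ERO1A stood at 27.6, 20.5, 19.3 and 24.5 FPKM, and ERO1B at 5.48, 4.62, 5.87 and 3.42 FPKM, with As2O3, GSK458, both drugs and in the control. ERO1A was highest with As2O3 and, like the isomerases, below the control with GSK458 and with both drugs. ERO1B was lowest in the control. The pseudogene PDIA3P1 was at most 1.71 FPKM and HSP90B2P, a pseudogene of HSP90B1, at most 0.0585 FPKM, far below both parent genes.

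The sensors ERN1 and ATF6 and the transcription factor XBP1 differed among themselves. ERN1, which encodes IRE1, the kinase and nuclease that splices the XBP1 message, stood at 7.5 FPKM with As2O3, 4.09 FPKM with GSK458, 6.28 FPKM with both drugs and 3.06 FPKM in the control. The As2O3 and combination libraries stood at 2.45 and 2.05 times the control, at a low level. ATF6, the membrane-bound transcription factor, was between 12.1 and 12.3 FPKM in the treated libraries and 10.9 FPKM in the control. XBP1 stood at 142 FPKM with As2O3, 106 FPKM with GSK458, 147 FPKM with both drugs and 129.7 FPKM in the control. These gene-level values count spliced and unspliced XBP1 together, so they carry no measure of IRE1 activity.

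Of the genes of ER-associated degradation, HERPUD1 stood apart. HERPUD1, a membrane protein that organises the degradation complex and is a known target of both ATF6 and ATF4, stood at 66.2 FPKM with As2O3, 41.0 FPKM with GSK458, 48.3 FPKM with both drugs and 31.1 FPKM in the control. It was above the control in every treated library, by 1.32 to 2.12 times. EDEM1, which delivers glycoproteins for degradation, stood highest with As2O3, at 18 FPKM, and lowest in the control, at 14.2 FPKM. SEL1L, the adaptor of the ubiquitin ligase, ranged from 14.1 to 15.6 FPKM, and the derlins DERL1 and DERL2 from 15.7 to 17.5 FPKM and from 7.32 to 9.42 FPKM. SYVN1, the ubiquitin ligase HRD1, ranged from 13.8 to 18.6 FPKM, and it overlaps exons of FAU, a far more abundant gene at 563 to 759 FPKM, on the same strand, so its value is uncertain. The 5 degradation genes other than HERPUD1 lay between -0.32 and 0.32 of the control on the log2 scale in each treated library.

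The translocation genes differed little between libraries. SEC61A1, the pore of the channel, stood at 87.7 FPKM with As2O3, 75.4 FPKM with GSK458, 79.2 FPKM with both drugs and 94.0 FPKM in the control. SEC61B and SEC61G, its small subunits, ranged from 168 to 216 FPKM and from 107 to 136 FPKM. SSR1, a subunit of the translocon-associated protein complex, ranged from 15.6 to 20.2 FPKM, and SEC11C, a catalytic subunit of signal peptidase, from 28.7 to 39.3 FPKM. All 5 were below the control with GSK458, with differences of -0.32 to -0.05 on the log2 scale, smaller than those of HSPA5, HYOU1 and HSP90B1. SEC61A1 overlaps RUVBL1 on the opposite strand, which stood at 37.7, 27.2, 23.0 and 47.5 FPKM with As2O3, GSK458, both drugs and in the control, and the part of this overlap was not tested.

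**Figure D2:**
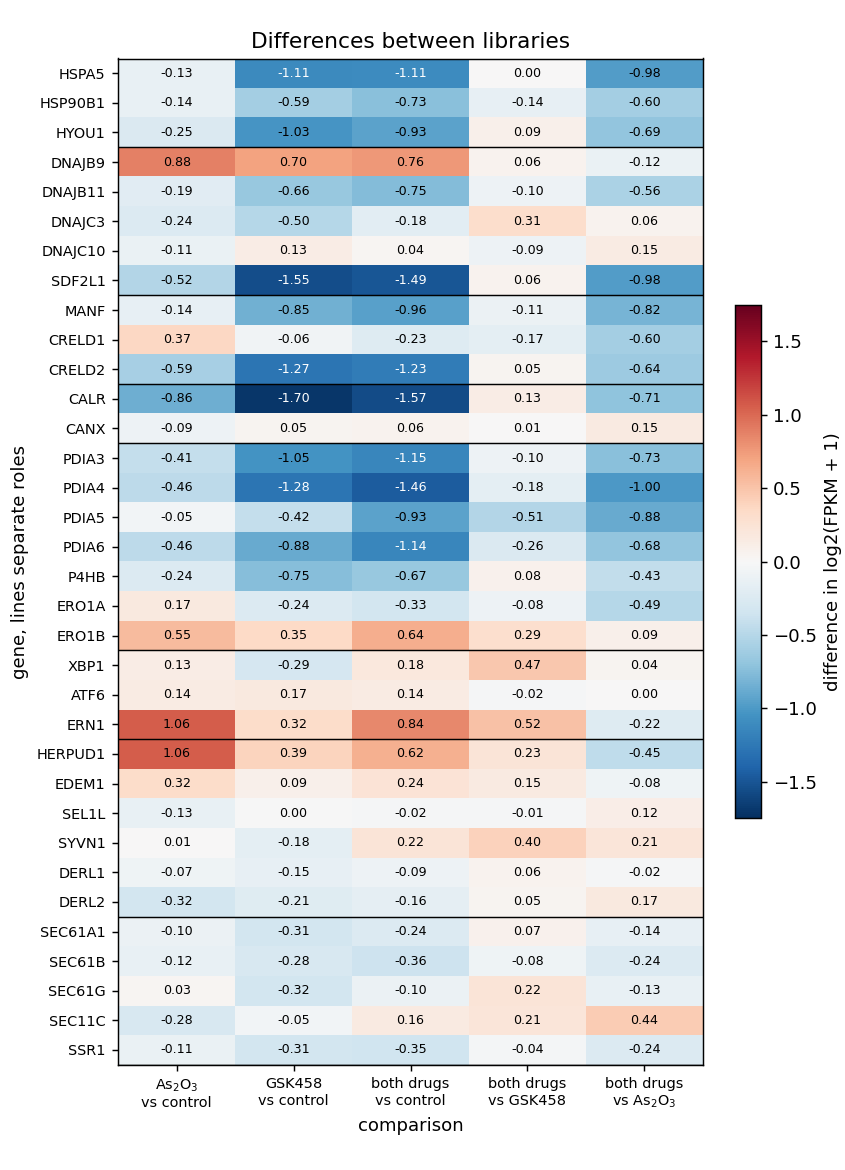
Differences in log2(FPKM + 1) of the 34 genes in the 5 comparisons, with lines between roles, blue for lower and red for higher. The blue cells with GSK458 and with both drugs gather in the chaperones and isomerases, down to -1.70 for CALR, and the degradation and translocation genes stay between -0.36 and 0.62 in these columns.

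Differences are given from here on as log2(FPKM + 1), a scale that understates the difference of low genes, and at least 2-fold means at least 1 on it. Under As2O3 alone, ERN1 and HERPUD1 were at least 2-fold higher than without drugs, both with a difference of 1.06, which is 2 of 34 genes, where 2.07% of all genes were. No gene of the panel was at least 2-fold lower, where 1.41% of all genes were, and the lowest were CALR at -0.86, CRELD2 at -0.59 and SDF2L1 at -0.52. The median of the 34 genes was -0.12, where that of all genes was 0.01, with 11 above 0 and 23 below, where 51.2% and 48.6% of all genes were. At least 1.5-fold, 3 genes were higher and 2 lower, where 7.43% and 6.45% of all genes were. Both 2-fold calls depend on the scale: with a pseudocount of 5 FPKM ERN1 was at 0.63 and HERPUD1 at 0.98, and with libraries rescaled to equal sums HERPUD1 was at 0.99.

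Under GSK458 alone, CALR, SDF2L1, PDIA4, CRELD2, HSPA5, PDIA3 and HYOU1 were at least 2-fold lower than without drugs, with differences of -1.70, -1.55, -1.28, -1.27, -1.11, -1.05 and -1.03. This is 7 of 34 genes, where 3.87% of all genes were at least 2-fold lower. No gene was at least 2-fold higher, where 2.35% of all genes were, and the highest was DNAJB9 at 0.70. The median of the 34 genes was -0.30, where that of all genes was -0.01, and 26 of the 34 were below 0, where 50.5% of all genes were. At least 1.5-fold, 1 gene was higher and 12 were lower, where 8.61% and 10.3% of all genes were. HYOU1 was at -0.96 with a pseudocount of 5 FPKM and at -0.98 with upper-quartile scaling, short of 2-fold. By role, the medians were -1.03 for the 3 lumenal HSP70 and HSP90 chaperones and -0.85 for MANF and the CRELD proteins. They were -0.75 for the 7 isomerases and oxidases, -0.50 for the 5 co-chaperones and -0.31 for the 5 translocation genes. The 6 degradation genes had a median of -0.08, and ERN1, ATF6 and XBP1 had 0.17. That of the 2 lectin chaperones, -0.82, lies between CALR at -1.70 and CANX at 0.05 and describes neither.

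All comparisons with the control share its 1 library, so their counts are not separate readings. With both drugs, 7 of 34 genes lay 2-fold or more under the control, where 4.31% of all genes were. They were CALR at -1.57, SDF2L1 at -1.49, PDIA4 at -1.46, CRELD2 at -1.23, PDIA3 at -1.15, PDIA6 at -1.14 and HSPA5 at -1.11. HYOU1 and MANF were just short of 2-fold, at -0.93 and -0.96, and both passed it once the libraries were rescaled to equal sums. No gene was at least 2-fold higher, where 3.25% of all genes were, and the highest were ERN1 at 0.84, DNAJB9 at 0.76, ERO1B at 0.64 and HERPUD1 at 0.62. ERN1 was at 1.01 with a pseudocount of 0.1 FPKM. The median of the 34 genes was -0.24, where that of all genes was -0.01, and 23 of the 34 were below 0, where 51.1% of all genes were. At least 1.5-fold, 4 genes were higher and 13 lower, where 9.93% and 11.7% of all genes were.

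Genes with ERSE or ERSE-II were set beside the others. With GSK458 against the control, 5 of the 11 genes with either element were at least 2-fold lower, where 3.87% of all genes were, and their median was -0.88. In the 21 genes without an exact match to either, 1 was at least 2-fold lower, PDIA4, and the median was -0.24. Both sets spanned lower and higher values, from -1.70 to 0.39 with an element and from -1.28 to 0.70 without. CANX, ERO1B and HERPUD1 carry an element and had differences of 0.05, 0.35 and 0.39.

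**Figure D3:**
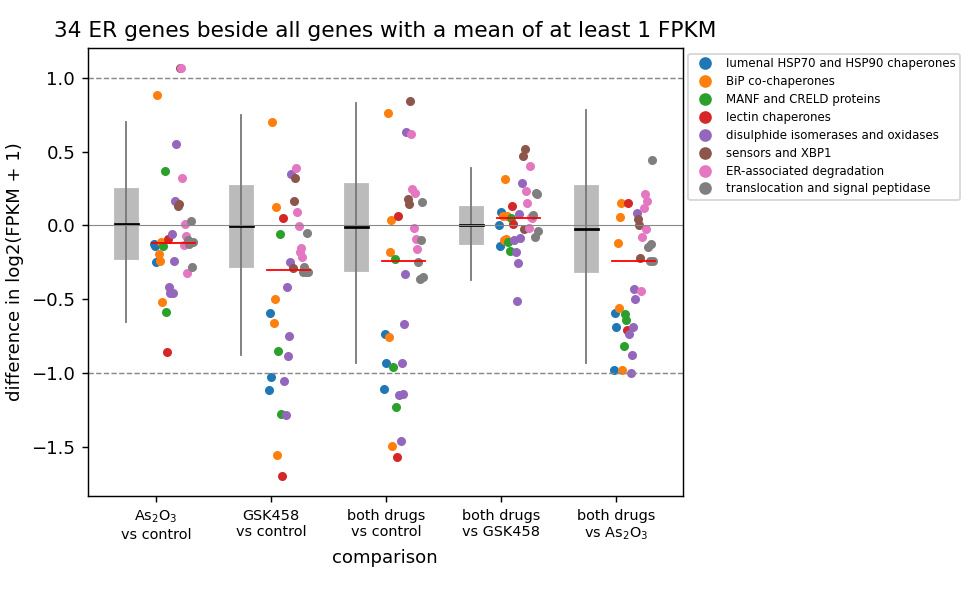
Difference in log2(FPKM + 1) of each of the 34 genes (points, coloured by role, red line at their median) in 5 comparisons, beside all genes averaging 1 FPKM or more (grey box for the middle 50%, black line for the median, whisker for the middle 90%). Dashed lines mark 2-fold. Points reach below -1 with GSK458 and with both drugs against the control, and none is past 2-fold in the last 2 comparisons.

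Adding As2O3 to GSK458 gave small differences in these genes. In the combination against GSK458 alone no gene was at least 2-fold higher or lower, where 0.644% and 0.318% of all genes were. Differences ran from -0.51 for PDIA5 to 0.52 for ERN1, with XBP1 at 0.47 and SYVN1 at 0.40, and the median was 0.05, where that of all genes was 0.00. HSPA5 differed by 0.00, HYOU1 by 0.09 and CALR by 0.13. The lower CALR, SDF2L1 and CRELD2 with As2O3 alone, at -0.86, -0.52 and -0.59, had no counterpart here, where these genes were at 0.13, 0.06 and 0.05.

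Adding GSK458 to As2O3 gave lower values for some chaperones and isomerases. In the combination against As2O3 alone no gene of the panel passed 2-fold, where 4.27% of all genes were lower and 2.28% higher by this much. The lowest were PDIA4 at -0.999, just short of the limit, HSPA5 at -0.98 and SDF2L1 at -0.98, and the median was -0.24, where that of all genes was -0.02. Of the 34 genes 24 were below 0, where 52.2% of all genes were. With a pseudocount of 0.1 FPKM, PDIA4 and SDF2L1 passed 2-fold. At least 1.5-fold lower were 12 of the 34 genes, where 11.6% of all genes were, and none was at least 1.5-fold higher, where 9.46% of all genes were. The 12 were HSPA5, HSP90B1, HYOU1, SDF2L1, MANF, CRELD1, CRELD2, CALR, PDIA3, PDIA4, PDIA5 and PDIA6.

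The comparison of GSK458 with the control and that of the combination with As2O3 share no library, so each gives a reading of GSK458. At least 1.5-fold lower in both were 10 of the 34 genes, where 6.01% of all genes were, and no gene was at least 1.5-fold higher in both, where 3.61% of all genes were. The 10 were HSPA5, HSP90B1, HYOU1, SDF2L1, MANF, CRELD2, CALR, PDIA3, PDIA4 and PDIA6. No gene was at least 2-fold apart in the same direction in both, where 2.50% of all genes were lower and 0.759% higher. HSP90B1 was nearest the limit of 1.5-fold, at -0.59 and -0.60. In either direction, 20 genes were below 0 in both pairs, where 37.0% of all genes were, 4 were above 0 in both, where 34.2% were, and 10 changed sign. HERPUD1 was among the last, at 0.39 without As2O3 and -0.45 with it, as were ERN1 at 0.32 and -0.22 and DNAJB9 at 0.70 and -0.12.

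The same could be done for As2O3. Of the 34 genes 8 were above 0 both without and with GSK458, where 30.1% of all genes were, 11 were below 0 in both, where 28.3% were, and 15 changed sign. No gene was at least 1.5-fold apart in the same direction in both pairs, where 0.922% of all genes were higher and 0.538% lower, and so none was at least 2-fold apart, where 0.253% were higher and 0.0816% lower. The 8 genes above 0 in both were ERN1, HERPUD1, DNAJB9, ERO1B, EDEM1, XBP1, SYVN1 and SEC61G. Of these ERN1 was at 1.06 and 0.52 and HERPUD1 at 1.06 and 0.23.

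**Figure D4:**
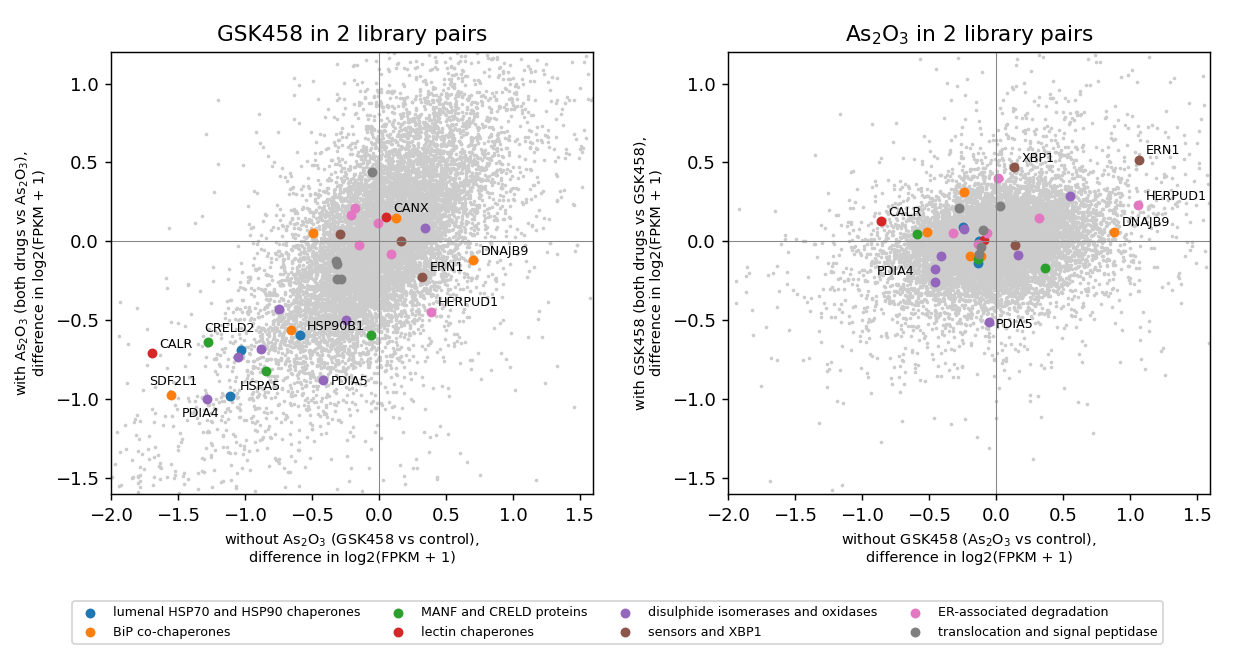
Difference in log2(FPKM + 1) for GSK458 (left) and As2O3 (right) in the pair of libraries without the other drug (x axis) and with it (y axis), for the 34 genes (coloured by role) and all genes (grey; genes beyond the axes are not shown). HSPA5, CALR, SDF2L1 and PDIA4 lie at the lower left for GSK458, and on the y axis for As2O3 the 34 genes lie between -0.51 and 0.52.

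The departure from additivity is the combination minus both single drugs plus the control, on the log2 scale, and is above 0 where the combination was higher than the single differences add up to. No gene of the panel departed by 2-fold, where 1.33% of all genes did above and 2.05% below. CALR was highest at 0.99, followed by CRELD2 at 0.63, SDF2L1 at 0.58 and DNAJC3 at 0.55. CALR passed 2-fold at 1.13 with libraries rescaled to equal sums and at 1.02 with upper-quartile scaling. Rescaling of whole libraries moves the departures of most genes by a similar amount. HERPUD1 and DNAJB9 were lowest at -0.83 and -0.82, followed by ERN1 at -0.55 and CRELD1 at -0.54. CALR, CRELD2, SDF2L1 and DNAJC3 were lower than the control with each single drug, and HERPUD1, DNAJB9 and ERN1 were higher with each. The median was 0.12, where that of all genes was 0.00.

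Other genes of the pathway were read from lists outside the panel. Of 11 genes of N-glycan transfer, 1 was at least 2-fold lower with GSK458 and with both drugs and none was higher. Of all genes, 3.87% and 4.31% were lower by this much in these comparisons, and 2.35% and 3.25% higher. The lower gene was RPN2, a subunit of the oligosaccharyltransferase, at 133 FPKM with As2O3, 90.5 FPKM with GSK458, 79.3 FPKM with both drugs and 184 FPKM in the control. Of 13 genes of glycan trimming, EDEM2, an ER mannosidase-like protein, was at least 2-fold lower with both drugs, at -1.15. Of 14 measured oxidoreductases, PRDX4, the ER peroxiredoxin, was, at -1.14. The medians of these 3 lists with GSK458 were -0.36, -0.05 and -0.20.

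Of 19 other genes of translocation and signal peptide cleavage, none was at least 2-fold apart in any of the 5 comparisons. By comparison and direction, 0.318% to 4.31% of all genes were. The signal recognition genes SRP54 and SRPR had the largest differences, at -0.62 and -0.61 in the combination against As2O3. Of 24 other degradation genes none was at least 2-fold apart either, and TMUB2, at 0.81, was highest in the combination against the control. Of 17 measured other ER chaperones and prolyl isomerases, FKBP11 was at least 2-fold higher in the combination, where 3.25% of all genes were. It stood at 8.06 FPKM with both drugs against 2.07 FPKM in the control. The median of that list was -0.09 with GSK458 and -0.47 with both drugs, and all genes stood at -0.01 in both. The list of 8 other sensors and processing enzymes had no gene at least 2-fold apart, and BFAR and CREB3L2 were at most 0.42 from the control.

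A list of the PERK branch, which includes the gene of PERK itself, did not follow the chaperones. Of 10 genes of that list, 8 were at least 2-fold higher with As2O3, none with GSK458 and 2 with both drugs, where 2.07%, 2.35% and 3.25% of all genes were. At least 2-fold lower was 1 gene with GSK458 and 1 with both drugs, where 3.87% and 4.31% of all genes were. The 2 higher with both drugs were ATF3 and NUPR1, and the lower gene was SESN2 in both comparisons, of which NUPR1 and SESN2 are named after their values were seen. These genes are shared with the amino acid response, which uses ATF4 as well, so their levels carry no measure of PERK activity. ATF3, a factor downstream of ATF4, stood at 17.1 FPKM with As2O3, 2.97 FPKM with GSK458, 4.70 FPKM with both drugs and 1.35 FPKM in the control. The differences of CHAC1 and ASNS with As2O3 were 2.26 and 2.01. DDIT3, the factor CHOP, stood at 72.7 FPKM with As2O3, 11.1 FPKM with GSK458, 13.7 FPKM with both drugs and 9.26 FPKM in the control. TRIB3 stood at 72.8, 14.5, 19.2 and 16.6 FPKM, and ATF4 at 534, 485.0, 443 and 254 FPKM in the same libraries. PPP1R15A, which recruits the phosphatase of eIF2α, stood at 31.9, 28.2, 31.5 and 15.4 FPKM, and EIF2AK3, which encodes PERK, at 19.1, 11.5, 11.3 and 12.8 FPKM. High DDIT3 and TRIB3 thus came with As2O3 alone, where BiP and HSP90B1 were within 0.14 of the control.

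**Figure D5:**
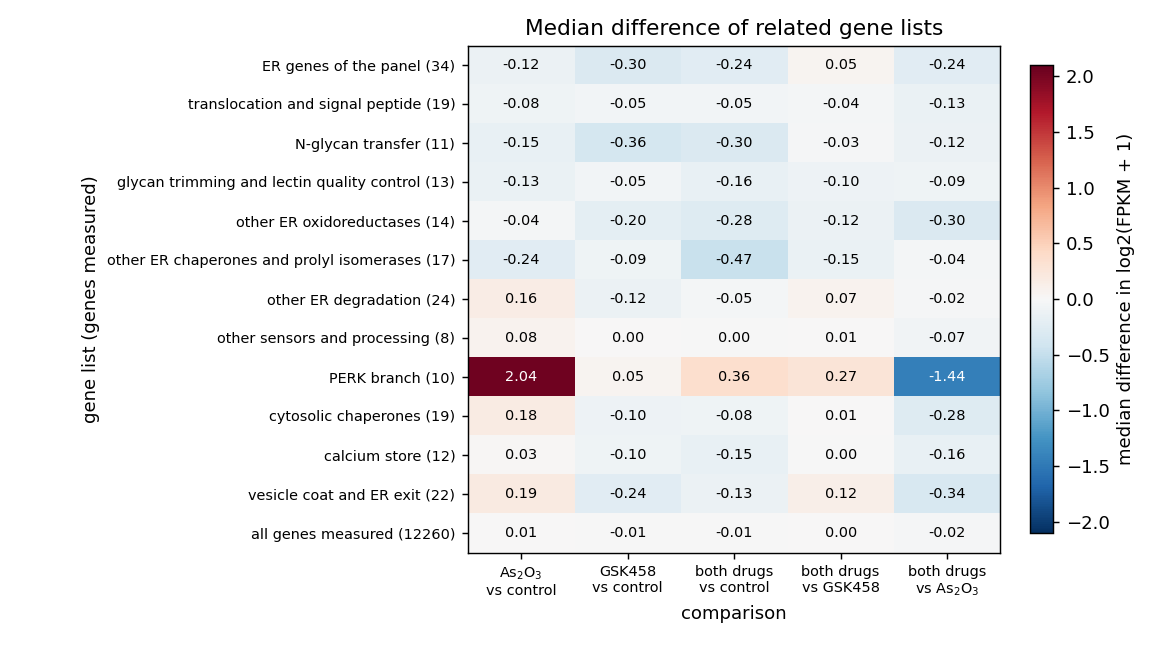
Median difference in log2(FPKM + 1) of each gene list (rows, with the number of genes measured) in 5 comparisons (columns), with all genes in the last row. The PERK branch list stands at 2.04 with As2O3 against the control and at -1.44 for both drugs against As2O3, and the other lists lie between -0.47 and 0.19.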

How the data were processed

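RNA of 4 TOV21G cultures, 1 library per group, was sequenced from a stranded poly(A) library kit, per the labels' protocols. The authors deposited FPKM values for 26255 gene symbols. Cuffdiff 2.2.1, TopHat2 2.1.1, SAMtools 0.1.18, Bowtie2 2.2.8 and the build hg19 are named in the submitters' processing notes, with no roles. The sources used here do not give the annotation, the strand setting or the handling of multiply mapped reads, so genes that overlap or have pseudogenes are uncertain. FPKM values keep no read counts, so no counting interval is given.

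Values were used as deposited, as log2(FPKM + 1), for genes averaging 1 FPKM or more, with Python 3.11.15 and pandas 2.3.3. No test was run: each group was 1 library. Counts use 2-fold, beside the share of all genes past it. The panel and lists were chosen with earlier results of these data known. All panel genes are described. Of each other list the text names up to 4 genes at least 2-fold apart in any comparison, or the 2 largest differences, and always ATF4, DDIT3, PPP1R15A, TRIB3 and EIF2AK3. SDF2, NUPR1, SESN2 and the overlapping genes were added after their values were seen. The difference calculation was tested on simulated data. Overlaps come from GENCODE v29 and promoters from RefSeq, both on GRCh38. One marker of the cell line is not reported here.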

Additional observations from a re-analysis of the deposited data

How the results depend on the processing

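The values were recomputed with scaling by upper quartiles, by median ratios or to equal sums, with a pseudocount of 0.1 or 5 FPKM, without the filter or with a minimum mean of 5 FPKM, and at 1.5-fold. Of 1185 single-gene differences recomputed under all but the last of these settings, none past 2-fold changed sign. Among them 5 came to pass 2-fold and 5 no longer passed it. Removing or raising the filter, with 170 and 165 of these, leaves a gene's difference unchanged, and a pseudocount cannot change its sign. The lack of sign changes is therefore no measure of stability. With a pseudocount of 0.1 FPKM, 1 gene was at least 2-fold higher with both drugs than in the control, where 623 of all 12260 genes were. At this setting 2 were lower with both than with As2O3, where 693 of all genes were. With a pseudocount of 5 FPKM, 0 genes were at least 2-fold higher with As2O3, and 1 with rescaled sums, where 138 and 246 of all genes were. Rescaled sums put the median with GSK458 at -0.42 and the median departure from additivity at 0.26, where the median of all genes with GSK458 was -0.11. Such scaling moves the departures of most genes by a similar amount, and the median departure of all genes was not recomputed. Counts of departures from additivity were recomputed as a choice made after seeing the data. With rescaled sums 1 gene was at least 2-fold above, and 1 with upper quartiles, and all genes were not counted there. At 1.5-fold 2 were above and 2 below, where 801 and 928 of all 12260 genes were. At 1.5-fold, 2 genes were lower with As2O3, 1 was higher and 12 lower with GSK458, 4 were higher and 13 lower with both drugs than in the control, and 12 were lower with both than with As2O3. The remaining panel counts and medians in the 5 comparisons kept within 1.5 times and 0.1 on the log2 scale. The panel's shares of all FPKM use no pseudocount and cannot change with scaling, and they kept within 1.1 times with the changed filters. Counts by role, by other list, by promoter element and over pairs of libraries, and genes outside the panel, were not recomputed. No paired analysis was possible because no result comes from a test and the labels give no replicate numbers. No library was left out, since each is a whole group. Without replicates or known depth, no difference was set against error.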

Other observations

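Other lists cover steps next to ER folding. Of 22 genes of vesicle coats and ER exit, 21 were above the control with As2O3, where 51.2% of all genes were, with a median of 0.19, and 17 were below it with GSK458, where 50.5% of all genes were, with a median of -0.24. SEC24A, a cargo adaptor of the COPII coat, was the gene at least 2-fold apart, higher with As2O3, where 2.07% of all genes were. It stood at 16.3 FPKM with As2O3, 7.22 FPKM with GSK458, 7.83 FPKM with both drugs and 7.38 FPKM in the control. Of 12 genes of the ER calcium store none was at least 2-fold apart, where 0.318% to 4.31% of all genes were by comparison and direction. The largest differences were those of CALU at -0.77 and ATP2A3 at 0.71, both in the combination against As2O3.

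Cytosolic chaperones had medians of 0.18, -0.10 and -0.08 for As2O3, GSK458 and both drugs against the control, over 19 measured genes. CRYAB, a small heat shock protein, stood at 79.6 FPKM with As2O3, 46.6 FPKM with GSK458, 94.2 FPKM with both drugs and 24.9 FPKM in the control. HSPH1, another cytosolic chaperone, stood at 5.64, 4.26, 6.69 and 2.72 FPKM in the same libraries, a low level.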
